A study of Oryzias latipes with 3 samples.

Results

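Chromatin immunoprecipitation followed by sequencing gave 12884 peaks of trimethylated lysine 4 on histone H3 (H3K4me3) in whole medaka embryos, and 1819 of them, 14.1% (Wilson 95% interval 13.5 to 14.7), shared no base with any of the 24027 peaks of acetylated lysine 27 (H3K27ac). These 1819 regions are called H3K4me3-only peaks below, and the other 11065 are called acetylated H3K4me3 peaks. The H3K4me3-only peaks were chosen by position alone, from the measured peak lists of both marks, so the absence of a called H3K27ac peak is how they were picked and not a result. They lay on all 24 chromosomes and covered 1.60 Mb, which is 10.2% of the sequence called for H3K4me3. The embryos of Oryzias latipes, the medaka fish, had reached stage 24 at 26 °C, had no genotype or treatment stated in the labels, and were pooled at 600 per sample before fragments of 200 to 300 bp were selected. The series has 3 samples, of which 2 were precipitated for H3K27ac with an Abcam antibody and 1 for H3K4me3 with a Diagenode antibody, and 1 peak list per mark was used here. With no replicate list there was no test between groups, and the intervals given cover counting error only.

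H3K4me3 is laid down by the Set1 and MLL methyltransferases around transcription start sites, above all at promoters rich in CpG dinucleotides. H3K27ac is deposited by the p300 and CBP acetyltransferases at promoters and enhancers in use. The same lysine 27 can instead be methylated by Polycomb repressive complex 2, and in embryonic stem cells and in zebrafish embryos many promoters of developmental regulators carry H3K4me3 together with that repressive methylation. Lysine 27 methylation was not analysed here. In a whole embryo a mark in a small part of the cells cannot be told apart from a weak mark in all of them, and a region without a called peak may still be acetylated below the threshold of the peak caller. No gene is named, because the gene table at hand is of another genome build: only 3.59% of its gene ends lay within 1 kb of an H3K4me3 midpoint, no more than the 3.87% found after moving them by 200 kb. Coordinates count from 1 and follow the build of the peak lists, for which the sources used here give no name.

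The H3K4me3-only peaks were concentrated among the weakest calls. The score is the authors' value from the peak caller, has no stated unit and starts at 50.01 in this list. The interquartile range of the scores of H3K4me3-only peaks was 69.8 to 224, around a median of 110 (95% interval 104 to 116, from order statistics). Split into 10 bins of equal size by score, the list gave a share that was lower in each bin than in the one before. In the lowest bin, up to a score of 97.2, 62.3% of the peaks were without H3K27ac (59.6 to 64.9). The share was 38.0% (35.4 to 40.6) in the second bin, 22.6% (20.4 to 24.96) in the third and 10.9% (9.28 to 12.7) in the fourth. The fifth bin, which ends at the median of the list, held 4.04% (3.09 to 5.26). Beyond a score of 1426, only 23 H3K4me3-only peaks were found among 5154 peaks, and of the 882 peaks tied at a score of 3100 a single one lacked H3K27ac. Peaks without H3K27ac outnumbered acetylated ones in the lowest bin alone.

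**Figure D1:**
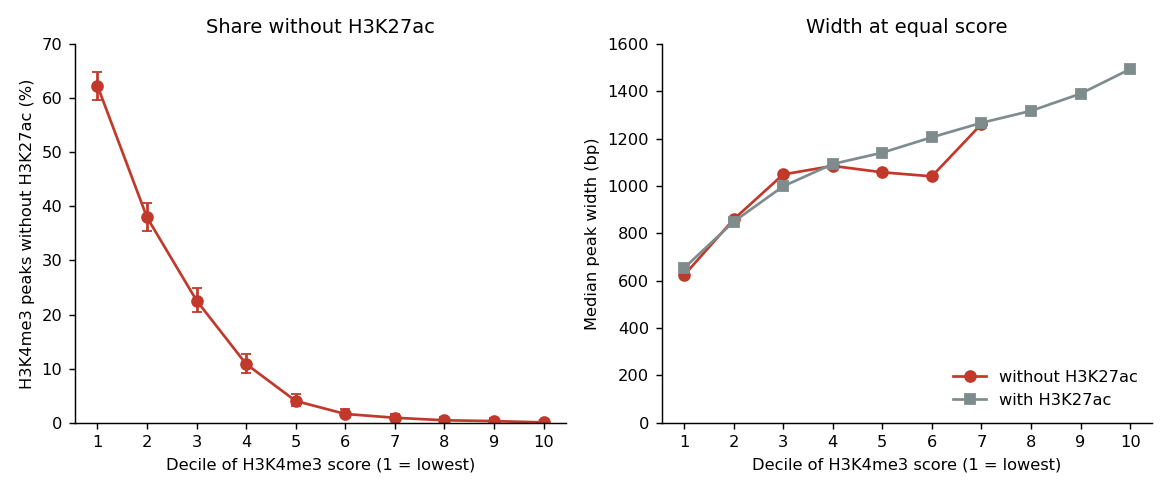
Left, percentage of H3K4me3 peaks without H3K27ac in each decile of H3K4me3 score, with Wilson 95% intervals; the share goes from 62.3% in decile 1 to 4.04% in decile 5. Right, median width in bp of peaks without (red, drawn where at least 10 such peaks exist) and with H3K27ac (grey) in the same deciles; the medians are 623 and 653.5 bp in decile 1 and 1085 and 1093 bp in decile 4.

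H3K4me3-only peaks were narrow over the whole list, and the difference was smaller within the lower bins of score. Over the whole list the H3K4me3-only peaks had a median width of 788 bp (766 to 804), against 1201 bp (1193 to 1211) for acetylated ones, and they were the narrower class on 24 of 24 chromosomes. The medians were 623 and 653.5 bp in the lowest bin of scores, 859 and 849 bp in the second, 1049 and 999 bp in the third and 1085 and 1093 bp in the fourth. In the fifth and sixth bins, which hold 52 and 21 H3K4me3-only peaks, these were again narrower, with 1058 against 1141 bp and 1041 against 1206 bp. Bins 7 and 8, with 12 and 6 H3K4me3-only peaks, gave 1261.5 against 1267 bp and 1240 against 1317.5 bp. In bins 9 and 10, with 4 and 1 H3K4me3-only peaks, these were wider, with 1957.5 against 1390 bp and 2743 against 1494 bp. The lowest score quintile, which joins the first and second bins and holds 71.0% of the class, gave 695 bp (676 to 711) against 769 bp (754 to 784), with H3K4me3-only peaks narrower on 20 of 24 chromosomes, but within it their median score was also lower, 83.6 against 114. In that quintile the share without H3K27ac was 54.5% (52.1 to 56.9) among the narrowest peaks, the first width quintile of the list, and then 42.1%, 49.3%, 33.6% (25.7 to 42.6) and 41.5% (30.4 to 53.7) in width quintiles 2 to 5. In the second score quintile it was lowest among the narrowest peaks, at 13.5% (10.9 to 16.7), and 18.8% (14.9 to 23.4) among the widest. Score and width were themselves related in both classes of this 1 library. The Spearman correlation was 0.63 over the 1819 H3K4me3-only peaks and 0.50 over the 11065 acetylated ones.

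**Figure D2:**
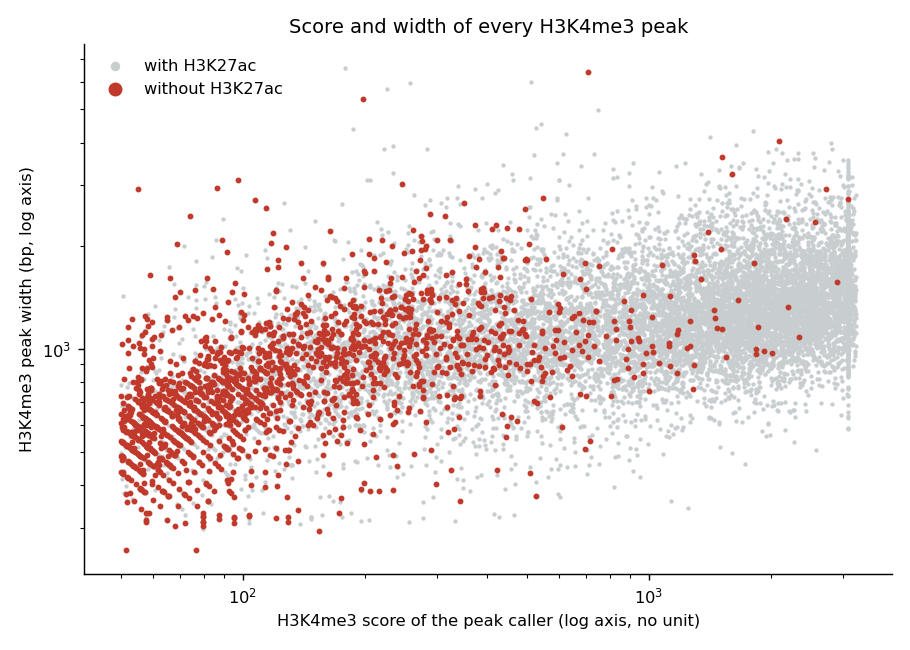
Score (horizontal, log axis, no unit) and width in bp (vertical, log axis) of each H3K4me3 peak, with H3K27ac in grey and without in red. The red points crowd the low-scoring, narrow corner, where their medians are 110 and 788 bp, and thin out to 23 peaks beyond a score of 1426.

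Peaks closest to the boundary of the rule, on either side, scored below the median of the whole list, as did nearly all H3K4me3-only peaks. The 5 H3K4me3-only peaks that came closest to acetylation lay 4 to 24 bp from an H3K27ac peak. They were found on chromosomes 3, 4 and 7 and were 1036 to 1730 bp wide. Their scores, 118 to 597, were all above the median of 110 for H3K4me3-only peaks. In all 5 the adjoining H3K27ac peak overlapped no H3K4me3 at all. On the other side of the boundary, the 5 acetylated H3K4me3 peaks with the smallest overlap shared 2 to 31 bp with H3K27ac, which is 0.394% to 5.53% of their width. Those 5 were 363 to 1088 bp wide and scored 53.2 to 238. None of the 10 reached the list median, which 44 of the 1819 H3K4me3-only and 6399 of the 11065 acetylated peaks did.

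Most H3K4me3-only peaks had acetylated chromatin nearby, as did most H3K4me3 peaks of the whole list. The nearest H3K27ac peak lay at a median of 6.75 kb edge to edge (6.23 to 7.24), against 7.43 kb over all H3K4me3 peaks with overlapping H3K27ac peaks left out. It was within 1 kb for 262 of the 1819, 14.4% against 8.86% of all. Within 5 kb it lay for 41.6% (39.3 to 43.8) against 33.9%, and within 20 kb for 79.0% against 83.9%. In the lowest score quintile the shares within 5 kb were 37.2% for H3K4me3-only and 36.6% for acetylated peaks. For 681 H3K4me3-only peaks the distance was 5 to 20 kb, for 356 it was 20 to 100 kb, and for 26 it was over 100 kb, 1.43% against 0.877% of all. Peaks nearer to acetylation were stronger and wider: the median score was 135 within 1 kb, 128 at 1 to 5 kb, 106 at 5 to 20 kb, 90.4 at 20 to 100 kb and 91.4 beyond, and the median width went from 936.5 to 620.5 bp. The lowest medians of both belonged to the peaks beyond 20 kb. The nearest H3K27ac peak itself overlapped an H3K4me3 peak, the pattern usual at promoters, in 959 cases, or 52.7% (50.4 to 55.0), and was free of H3K4me3, the pattern usual at enhancers, in the rest. Over all H3K4me3 peaks the corresponding share was 58.0%, and in the lowest score quintile it was 54.4% for H3K4me3-only and 54.9% for acetylated peaks. Among H3K4me3-only peaks the proportion stayed between 50.6% and 54.8% over the 5 distance classes.

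Over the whole list, compared with acetylated H3K4me3 peaks, those without H3K27ac were both more often crowded and more often alone. Another H3K4me3 peak lay within 1 kb of 11.3% of them (9.95 to 12.9), against 7.62% (7.14 to 8.13) of acetylated ones (206 and 843 peaks), with the higher share on 21 of 24 chromosomes. At the other extreme, 14.5% had no other H3K4me3 peak within 50 kb (264 peaks), compared with 1107 of the 11065 acetylated ones, again with the higher share on 22 of 24 chromosomes. No H3K27ac peak lay within 50 kb, midpoint to midpoint, of 6.60% (5.55 to 7.83), against 3.34% (3.02 to 3.70) of acetylated peaks once their own overlapping H3K27ac peaks were left out. A total of 98 H3K4me3-only peaks, 5.39% (4.44 to 6.52), had neither mark around them within that distance, against 2.64% of acetylated peaks; in the lowest score quintile these shares were 6.73% (5.49 to 8.23) and 4.59% (3.58 to 5.88). The comparison with H3K27ac at short range is not like for like, since an acetylated peak has its own H3K27ac peak beside it and neighbours can only start where that one ends. Extending every H3K27ac peak by 1 kb removes from the class the peaks within 1 kb of acetylation, and the share with another H3K4me3 peak within 1 kb then turned round, to 4.56% against 8.63%. With the H3K4me3 list cut at its median score, 44 such peaks were left, and only peaks kept by the cut counted as H3K4me3 neighbours. The share alone within 50 kb was then 20.5% against 24.0%, the opposite order too. The share with no H3K27ac peak within 50 kb was 2.27% against 2.72%. With 44 H3K4me3-only peaks, both of these orders rest on very few of them.

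The crowded H3K4me3-only peaks were mostly the weaker of a pair. Of the 206 with another H3K4me3 peak within 1 kb, 133 had an acetylated neighbour and 73 a neighbour that also lacked H3K27ac. Over all 1049 H3K4me3 peaks with such a neighbour, it was acetylated for 840. The neighbour scored higher in 151 of the 206, or 73.3%, and its median score was 226 against 107. Over all H3K4me3 peaks with such a neighbour the share was 49.9%, and over the acetylated ones it was 44.1%. In the lowest score quintile it was 77.7% for H3K4me3-only and 72.4% for acetylated peaks, so low-scoring peaks of both classes were mostly the weaker. Within the lowest score quintile, where 1292 H3K4me3-only and 1285 acetylated peaks can be set side by side, another H3K4me3 peak within 1 kb was found for 11.5% (9.83 to 13.3) and 13.2% (11.5 to 15.2), so the higher share seen over the whole list was not seen at low score. For isolation, 15.7% and 12.3% of this quintile had no other H3K4me3 peak within 50 kb, with intervals that overlap. In the lowest of the 10 bins of score the shares were 16.9% and 11.9%. They were 13.7% and 12.5% in the second bin, 15.1% and 13.5% in the third and, in the opposite order, 6.43% and 10.2% in the fourth. The share with no H3K27ac within 50 kb was 7.97% (6.62 to 9.58) and 5.99% (4.82 to 7.43), intervals that overlap. Measured between edges, it was 8.72% and 4.94% in the lowest bin of score and 6.27% and 3.23% over the whole list. The order was the opposite in the next bins of score. There the shares were 5.73% and 6.51% in the second, 4.12% and 5.72% in the third and 1.43% and 2.70% in the fourth.

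**Figure D3:**
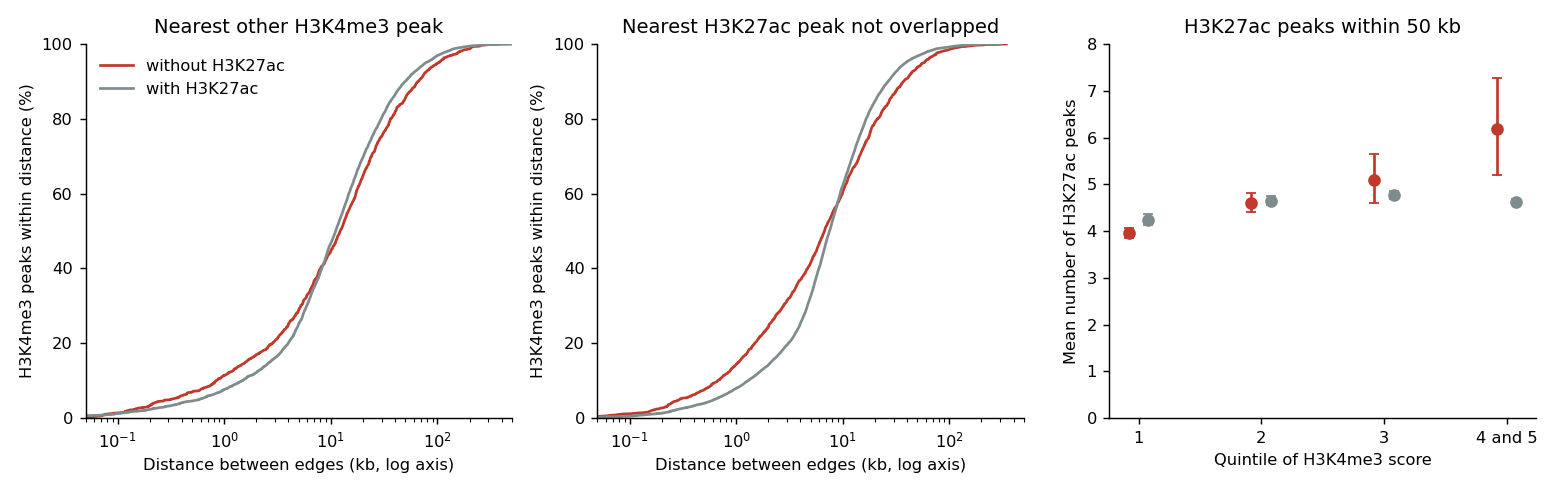
Left and centre, cumulative percentage of H3K4me3 peaks without (red) and with H3K27ac (grey) against the distance in kb (log axis) to the nearest other H3K4me3 peak and to the nearest H3K27ac peak not overlapped. The red lines lie higher at 1 kb (11.3% against 7.62% on the left) and lower at 50 kb. Right, mean number of H3K27ac peaks within 50 kb, overlapping ones left out, by quintile of H3K4me3 score, with exact Poisson 95% intervals. The means are 3.95 and 4.24 in quintile 1 and 6.17 and 4.63 in quintiles 4 and 5.

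Strong H3K4me3-only peaks had more H3K27ac peaks around them than weak ones. The 1292 in the lowest score quintile had a mean of 3.95 H3K27ac peaks within 50 kb (exact Poisson 95% interval 3.85 to 4.06), slightly below the 4.24 (4.13 to 4.36) of acetylated peaks of that quintile. In the second quintile the means were 4.599 and 4.65, and in the middle quintile 5.10 and 4.76, with overlapping intervals in both. The 23 H3K4me3-only peaks of the highest 2 quintiles had a mean of 6.17 (5.20 to 7.28), with values from 1 to 11 and a median of 6. For the 5131 acetylated peaks of these 2 quintiles it was 4.63 (4.57 to 4.69). Scores were not matched within them: 18 of the 23 lay in quintile 4 and 5 in quintile 5, against 2559 and 2572 acetylated peaks. The numbers of H3K27ac peaks are not like for like, because those that overlap an acetylated peak are left out of its count. The intervals of the highest 2 quintiles do not overlap, but neighbouring peaks are not independent and the group is small, so no difference is tested here. The nearest H3K27ac peak was within 5 kb of 52.2% of the 23 (33.0 to 70.8) and of 65.8% (54.3 to 75.6) of the 73 in the middle quintile. Among acetylated peaks of the highest 2 and the middle quintile the shares were 24.9% and 38.3%. The rule fixes part of this contrast, because the H3K27ac peak on an acetylated peak takes up the space next to it and is not counted. The same limit applies to the kind of peak that lay nearest. In 14 of the 23 the nearest H3K27ac peak carried no H3K4me3, or 60.9% (40.8 to 77.8), compared with 39.0% (37.7 to 40.4) around acetylated peaks. Of these 23 strong peaks, 10 (43.5%) fell in the widest quintile of the list, as did 32.6% of acetylated peaks of the highest 2 score quintiles. The median width of the 23 was 1320 bp (1138 to 2346), against 1367 bp (1355 to 1381) for those acetylated peaks.

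With a score of 3100, the strongest H3K4me3-only peak was 2743 bp wide and lay at chromosome 5, 26642613 to 26645355. It stood 17.8 kb from the nearest H3K27ac peak and 38.4 kb from the nearest H3K4me3 peak. It had 9 H3K27ac peaks within 50 kb. The second, at chromosome 7, 19269861 to 19271429 (score 2909, 1569 bp), began 493 bp from the end of an H3K27ac peak 5290 bp wide that had no H3K4me3. The third, at chromosome 13, 1527189 to 1530105 (score 2737, 2917 bp), lay between H3K27ac peaks, 1 ending 317 bp before it and 1 starting 288 bp after it. The latter was 839 bp wide and scored 54.6, close to the lowest H3K27ac score of 50. The third peak was the strongest of the 7 H3K4me3-only peaks with H3K27ac within 1 kb on both sides, and the other 6 scored 51.4 to 114. Chromosome 7 also held the fourth, at 11591811 to 11594156 (score 2572), and the fifth, at 17311153 to 17312231 (score 2340). Their nearest H3K27ac peaks lay at 6.93 and 8.76 kb. The sixth, at chromosome 11, 21023434 to 21024753 (score 2208), was the only one of the 10 with an acetylated H3K4me3 peak within 5 kb: 1.42 kb away stood an H3K27ac peak of score 2980 that overlapped H3K4me3. The seventh, at chromosome 8, 8860708 to 8863099 (score 2180, 2392 bp), lay between H3K27ac peaks 3.85 kb to the left and 9.61 kb to the right.

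The eighth strongest stood apart from the rest in its surroundings. This 4051 bp peak at chromosome 12, 14198790 to 14202840, scored 2096 and had its nearest H3K27ac peak 36.6 kb away and 1 within 50 kb. The nearest H3K4me3 peak, at 3.96 kb, also lacked H3K27ac. It was the only one of the 10 with such a neighbour, and no H3K27ac peak lay within 30 kb of its centre. The last of the 10 were narrow peaks of 973 and 981 bp, at chromosome 7, 4687476 to 4688448 (score 2006), with 11 H3K27ac peaks within 50 kb, and at chromosome 17, 10570064 to 10571044 (score 1923), with 3. In all, 4 of the 10 lay on chromosome 7, which held 89 of the 1819 H3K4me3-only peaks. A concentration there was not tested.

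**Figure D4:**
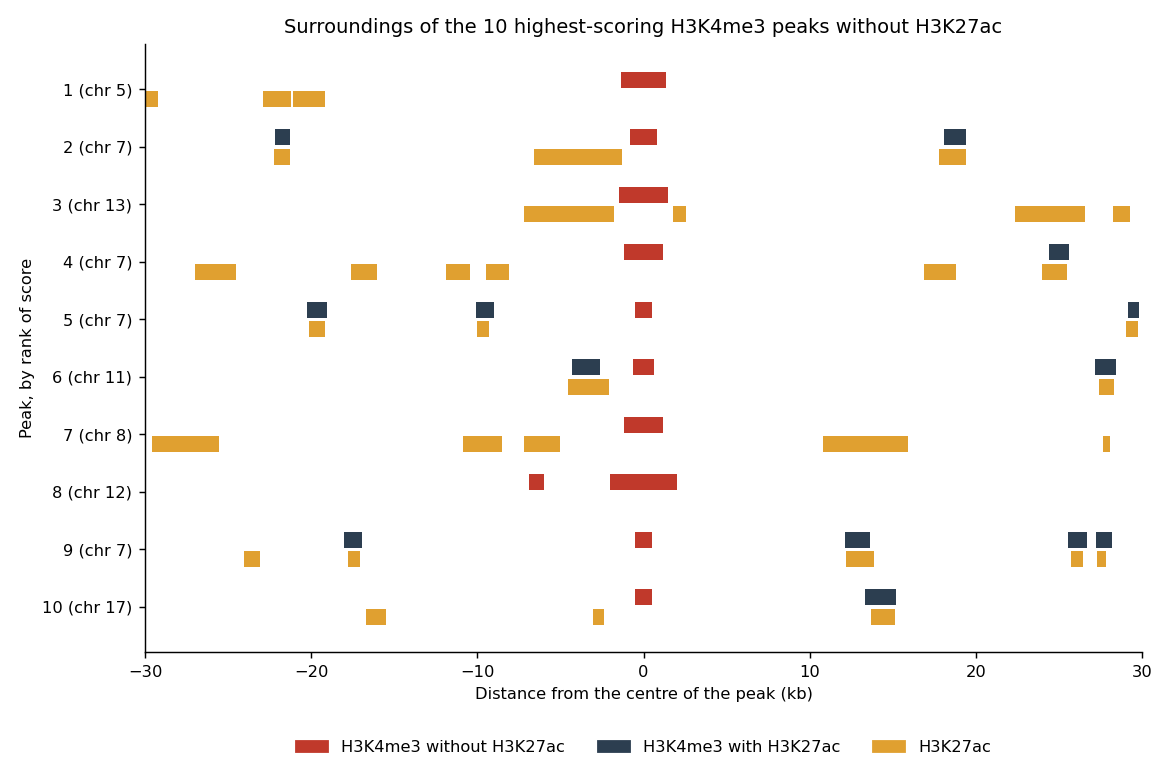
Peaks within 30 kb of the centre of each of the 10 highest-scoring H3K4me3 peaks without H3K27ac, ranked 1 to 10 from top to bottom; horizontal axis, distance from the centre in kb. Bars to scale are H3K4me3 without H3K27ac (red), H3K4me3 with H3K27ac (dark blue) and H3K27ac (yellow). Rank 3 sits between H3K27ac peaks 317 and 288 bp away, and rank 8 has none in view.

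Among both the 10 strongest and the 10 widest were 2 H3K4me3-only peaks, the third and the eighth above. The widest, 6412 bp at chromosome 22, 6715888 to 6722299, scored 707 and was 131 kb from any other H3K4me3 peak. It was 14.1 kb from H3K27ac and had 5 H3K27ac peaks within 50 kb. The next, 5370 bp on the same chromosome at 18385825 to 18391194, scored 198 and was more remote still, at 94.3 kb from H3K27ac and 202 kb from H3K4me3. Both were thus long peaks far from other H3K4me3, and only the second was also far from H3K27ac. Peaks of 3621 bp at chromosome 3, 20322422 to 20326042 (score 1516), and of 3244 bp at chromosome 17, 17316059 to 17319302 (score 1604), were strong as well and had 8 and 9 H3K27ac peaks within 50 kb. The other 4 of the 10 widest scored between 55.2 and 246, on chromosomes 8, 11 and 15, so that wide H3K4me3-only peaks ran over nearly the whole range of scores.

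The most remote H3K4me3-only peaks were mostly narrow, with scores on both sides of the class median. The 10 farthest from acetylation, at 161 to 342 kb, were 322 to 1237 bp wide and scored 67.3 to 342. Over all H3K4me3-only peaks the medians were 788 bp and 110. The farthest pair lay on chromosome 18, at 6708336 to 6708788 and 6666636 to 6667204, 342 and 300 kb from H3K27ac and 41.1 kb from each other. A peak of 325 bp at chromosome 13, 22982495 to 22982819, was 291 kb from H3K27ac and 293 kb from the next H3K4me3 peak. The highest score of these 10 was at chromosome 1, 30563232 to 30563590, a 359 bp peak 220 kb from H3K27ac. None of the 10 was among the 10 strongest or the 10 widest, which says little for sets of 10 out of 1819.

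Runs of neighbouring H3K4me3-only peaks were short, in a class that is 14.1% of the list. Whether a random order of the list would give like lengths was not tested. Single peaks, with no H3K4me3-only peak directly before or after them in the list, numbered 1289, or 70.9% of the class. Pairs numbered 194 and accounted for another 21.3%. The 44 runs of 3 or more held 142 peaks, or 7.81% (6.66 to 9.13). For 17.6% of H3K4me3-only peaks (16.0 to 19.5) the nearest H3K4me3 neighbour also lacked H3K27ac, against 12.9% (12.3 to 13.5) of acetylated peaks, with the higher share on 16 of 24 chromosomes. In the lowest score quintile, at any distance of the neighbour, the shares were close, 18.6% (16.5 to 20.8) and 17.8% (15.8 to 20.01). Where that neighbour lay within 1 kb they were further apart. There it lacked H3K27ac for 59 of 148 H3K4me3-only and 36 of 170 acetylated peaks of this quintile, a contrast that was not tested. At any distance, the share for acetylated peaks of the other quintiles was between 11.6% and 13.4%, below that of the lowest.

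Of the 3 runs of 5 peaks, that on chromosome 11, 10543370 to 10622621, was the tightest at 79.3 kb. Its scores were 52.2, 74.1, 246, 236 and 836, and the third of its peaks was 3028 bp wide. The run at chromosome 2, 14386793 to 14507238, contained no H3K27ac peak over 120 kb and had none within 23.5 kb of any of its members. Its second member scored 1244, its first 423 and the other 3 between 74.5 and 120. The run on chromosome 13, 23519613 to 23936511, was spread over 417 kb, and its members scored 52.0 to 652. Within that stretch lay 4 H3K27ac peaks. Among the 4 runs of 4, that at chromosome 21, 24601654 to 24622592, packed broad peaks of 1481 to 2239 bp into 20.9 kb, with scores of 76.0, 276, 114 and 411 and a single H3K27ac peak between them. The others lay on chromosomes 2, 10 and 13 over 88.3 to 135 kb and had members of 379 to 1455 bp.

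The H3K4me3-only share varied moderately among chromosomes. It was lowest on chromosome 3, with 58 of 541 peaks or 10.7% (8.39 to 13.6), and highest on chromosome 2, with 73 of 366 or 19.9% (16.2 to 24.3), around a median of 13.9%. These are the extremes of 24, so their intervals do not test a difference. Chromosome 2 also had the largest part of its H3K4me3 peaks in the lowest score quintile, 28.7%, and the largest part of H3K4me3-only peaks with a like neighbour, 38.4%. Over the 24 chromosomes the part of peaks in the lowest score quintile and the H3K4me3-only share were related, with a Pearson correlation of 0.80 and a Spearman correlation of 0.77. This is a description of 1 pair of lists, and the low-scoring peaks include most of the class. Within the lowest quintile the H3K4me3-only share ran from 42.7% on chromosome 4 to 58.8% on chromosome 24. Chromosome 1, the sex chromosome of medaka, carried the most H3K4me3-only peaks, 105 of 658 or 16.0% (13.4 to 19.0), an interval that includes the share of the whole list. Per Mb, numbers ran from 1.61 on chromosome 3 to 3.47 on chromosome 8.

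**Figure D5:**
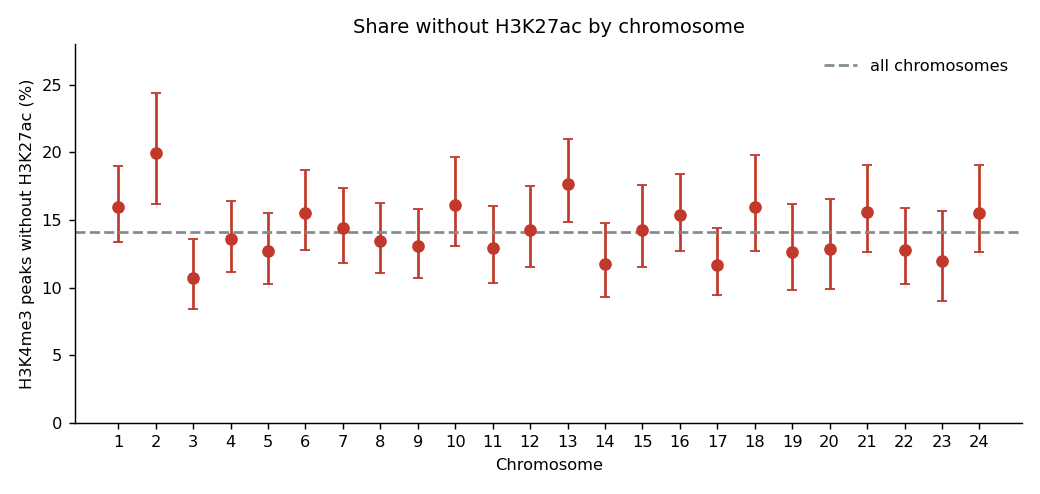
Percentage of H3K4me3 peaks without H3K27ac on each of the 24 chromosomes, with Wilson 95% intervals; the dashed line is the share over all chromosomes, 14.1%. Chromosome 3 is lowest at 10.7% and chromosome 2 highest at 19.9%, and most intervals include the dashed line.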

How the data were processed

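Peak lists of 1 H3K4me3 and 1 H3K27ac sample were used, and H3K27ac replicate 2 was not analysed here. The aligner was Bowtie, per the submitters' processing notes. The deposited peak names contain MACS, a peak caller. The sources used here give neither its version and settings nor a control library, a genome build or whether samples were pooled. For each peak the authors deposited its position, a name and a score. The deposited score is used only within its own list, to rank, split and describe peaks. Read depth is unknown.

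Overlap meant at least 1 shared bp, checked with bedtools 2.31.1. Distances are between edges, numbers within 50 kb between midpoints. For acetylated peaks, H3K27ac peaks overlapping them were left out. Shares have Wilson, medians order-statistic and means exact Poisson 95% intervals. Routines written in Python 3.11.15 with SciPy 1.17.1, NumPy 2.4.6, pandas 2.3.3 and, for plots, matplotlib 3.10.9 were tested on simulated data. Named regions are the 10 H3K4me3-only peaks of highest score, the 10 widest, the 10 farthest from H3K27ac, the 5 closest on each side of the overlap rule, and the 5 longest runs with ties. The class, measures and this rule were chosen with earlier results of these data known. The alternatives covered the overlap rule, score thresholds, fixed widths and merging.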

Additional observations from a re-analysis of the deposited data

How the results depend on the processing

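Of 71 recomputed values, 23 stayed within the counting interval of the reported value, or within 1.5 times for numbers of peaks, and 48 moved. Those values have no direction. Contrasts with acetylated peaks do, and 3 of them were recomputed under each setting. These were the shares with another H3K4me3 peak within 1 kb, with none within 50 kb and with no H3K27ac peak within 50 kb. They turned round in 3 cases. Other contrasts, such as width and like neighbours, were not recomputed for acetylated peaks. With H3K27ac extended by 1 kb, another H3K4me3 peak within 1 kb was found for 4.56% against 8.63%. The other cases were in the top 50% of H3K4me3 by score, where 44 H3K4me3-only peaks were left. No other H3K4me3 peak lay within 50 kb of 20.5% against 24.0%, and no H3K27ac peak of 2.27% against 2.72%. Both orders rest on very few peaks. Merging peaks up to 1 kb apart made the share with another H3K4me3 peak within 1 kb 0% in both classes by construction. Wherever H3K4me3 peaks were selected by score, H3K4me3 neighbours were sought among the selected peaks only. With the top 50% of H3K27ac, distances to H3K27ac and numbers of it likewise covered the selected H3K27ac peaks only. The share without H3K27ac (14.1%) became 16.1% when under 50% of the peak was covered, 15.4% by midpoints, 12.1% with H3K27ac extended by 1 kb, 14.8% with 1 kb around midpoints and 13.3% with peaks up to 1 kb apart merged beforehand. It depended most on score: 0.683% (44 peaks) in the top 50% of H3K4me3 by score, 32.6% (4197) with the top 50% of H3K27ac, and 8.57% (989) for H3K4me3 scores of 100 or more, a setting chosen after seeing the data. Those 3 settings gave median widths of 1181, 890 and 974 bp, median scores of 1452, 193 and 209, distances to H3K27ac of 3.41, 14.2 and 5.5 kb, like neighbours in 0%, 35.7% and 10.5%, 0, 1175 and 39 peaks in runs, and 5.52, 2.31 and 4.45 H3K27ac peaks within 50 kb. Distance to other H3K4me3 was 19.6 kb in the first and 14.1 kb in the third, against 12.3 kb. With under 50% covered and by midpoints, width was 839 and 817.5 bp, score 123 and 118 and distance to H3K27ac 5.24 and 5.77 kb, and like neighbours were 19.5% with the former. Extension gave 7.88 kb to the extended H3K27ac edges, 13.9 kb to H3K4me3 and 3.94 H3K27ac peaks within 50 kb. Merging gave 7.72 kb, 14.9 kb and 3.83, with like neighbours in 15.0% and 93 peaks in runs. Fixed widths gave a score of 119 and 4.35 H3K27ac peaks. The causes were not tested beyond what each setting removes by construction. No paired analysis was possible because there was a single list for either mark. Read depth is unknown, so weak acetylation below the threshold of the peak caller cannot be told apart from none. Gene starts, gene families and sequences were not used, since the build differs.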

Other observations

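Position along the chromosome made little difference to the H3K4me3-only share. With each chromosome cut into 10 equal parts between its first and last peak, the 2 outermost parts held 366 H3K4me3-only peaks, 14.8% of their H3K4me3 peaks (13.4 to 16.2), and the 2 central parts 394, or 13.3% (12.1 to 14.6). The outermost parts nonetheless had more of their H3K4me3 peaks in the lowest score quintile, 23.9% against 18.1% in the centre.

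H3K27ac on both sides within 5 kb was found for 109 H3K4me3-only peaks, 5.99% (4.99 to 7.18), and for 2.94% (2.64 to 3.27) of acetylated H3K4me3 peaks; the latter have an H3K27ac peak of their own in between. In the lowest score quintile the shares were 5.03% (3.97 to 6.36) and 4.12% (3.17 to 5.36), and in the middle quintile 9.59% (4.72 to 18.5) and 3.36% (2.72 to 4.14). The H3K27ac peak nearest to the 23 H3K4me3-only peaks of the highest 2 score quintiles had a median width of 1651 bp (978 to 2147). Next to acetylated peaks of those quintiles, overlapping H3K27ac left out, it was 1062 bp (1047 to 1079), inside the first interval. In the second and middle quintiles the medians were 1148 and 1172 bp, against 1027.5 and 1082 bp next to acetylated peaks. In the lowest quintile the order was the opposite, 963.5 against 1000 bp.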
